A study of Mus musculus with 6 samples.

Results

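The transcripts of the 6 subunit genes of mouse protein kinase A (PKA) were followed in adult pancreatic acinar cells with and without the ubiquitin ligase gene Trip12. The 6 members were the regulatory subunit genes Prkar1a, Prkar1b, Prkar2a and Prkar2b and the catalytic subunit genes Prkaca and Prkacb, found by symbol among the 55414 genes of the count tables. Prkar2b was chosen by its measured fold change between these same groups, so its values are described here without a test. The other 5 genes came in as the rest of the family, to see whether a lower Prkar2b is balanced by another subunit. All 6 passed the filter on low counts, as did 13115 genes in all. Controls had the genotype Pdx1Cre;Trip12+/+ and knockouts Pdx1Cre;Trip12fl/fl, with 3 untreated adult preparations in each group and 1 library per preparation. Both groups thus carried the Cre recombinase transgene. The Pdx1 promoter drives Cre in the pancreatic epithelium from development on, so that duct and islet cells can lose the floxed gene as well. The labels call the preparations biological replicates and give neither the sex nor the exact age of the animals.

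PKA is the main effector of cyclic AMP. In the resting enzyme a dimer of regulatory subunits binds and silences a pair of catalytic subunits, and cyclic AMP bound to the regulatory subunits sets the catalytic subunits free to phosphorylate their targets. Type I regulatory subunits (Prkar1a, Prkar1b) are largely cytosolic, whereas type II subunits (Prkar2a, Prkar2b) are mostly held at membranes and organelles by A-kinase anchoring proteins. In acinar cells, secretin and vasoactive intestinal peptide raise cyclic AMP, which adds to the calcium-driven release of digestive enzymes. Prkar1a and Prkar2a are widely expressed, while Prkar2b is best known from brain, fat and endocrine tissue.

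The libraries held 31019500 to 34041901 gene counts. Trip12 itself averaged 25.9 ± 3.36 CPM (SD, n = 3) over the controls and 14.0 ± 0.917 CPM over the knockouts (log2 fold change -0.89). Its adjusted p was 0.0256 by the quasi-likelihood method of edgeR after Benjamini-Hochberg correction, the main test throughout. CPM are counts scaled to a common library size with TMM factors, which correct for library composition. The call on Trip12 was lost when TMM factors gave way to library totals (log2 fold change -0.49, adjusted p = 0.125 in the same edgeR test), with sex as a covariate (-1.05, adjusted p = 0.0941) and in the fits that left out control replicate 2, control replicate 3 or any 1 knockout library, with log2 fold changes from -0.98 to -0.83. It was also lost with replicates 2 and 3 alone (-0.84, adjusted edgeR p of 0.0793), and it held in 8 of 16 alternatives. Whole-gene counts do not show which exons a floxed allele lacks. The X-linked transcript Xist was abundant only in control replicates 2 and 3 (2118 and 2440 counts) and gave 3 to 5 counts in every other library, so sex and genotype were partly confounded. Scaling to library totals moves the typical gene up by 0.41 on the log2 scale (median over all tested genes), which is larger than most differences among the subunits below. The 10 acinar markers, digestive enzymes and acinar transcription factors, summed to between 337177 and 552098 CPM in every library, so that the labelled cell type was the main source of the RNA. That sum was 408623 to 552098 CPM in control and 337177 to 346456 CPM in knockout, with no overlap, although 0 of the 10 were called one by one in edgeR. The TMM factors were 0.785 to 1.02 in control and 1.12 to 1.19 in knockout. A higher factor lowers every CPM of a library, so the size of this gap depends on the scaling. The marker sum was not computed with library totals. The sum is made up almost wholly of the digestive enzymes, and the acinar transcription factor gene Rbpjl went the other way, at 180 to 280 CPM in control and 370 to 658 CPM in knockout (log2 fold change 1.24, adjusted edgeR p of 0.0685). The acinar transcription factor genes Ptf1a and Bhlha15 had lower means in knockout, with overlapping groups. Ptf1a averaged 10.7 CPM in control and 7.32 CPM in knockout, and Bhlha15 224 and 165 CPM (log2 fold changes -0.55 and -0.44). Reads counted to no gene also differed, at 43.5% to 45.7% of a control library and 36.9% to 41.1% of a knockout library. Most of them mapped to several places, at 26.0% to 28.4% of all reads in control and 21.6% to 24.1% in knockout. The part of these differences in the values of the subunits was not tested.

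Prkar2b (ENSMUSG00000002997), which encodes the type II beta regulatory subunit, lay below all 3 controls in each of the knockouts. From here on, values of single libraries stand in the order of replicates 1, 2 and 3. The gene had 90, 113 and 105 counts in the controls against 30, 10 and 18 counts in the knockouts. The normalised values were 2.83, 4.64 and 3.82 CPM in the controls against 0.804, 0.285 and 0.483 CPM in the knockouts. The lowest control and the highest knockout were both replicate 1, and the groups did not overlap. Prkar2b had a mean of 3.76 ± 0.905 CPM (SD, n = 3) among controls and 0.524 ± 0.262 CPM among knockouts; the knockouts thus held 13.9% of the mean of the controls, with a fitted log2 fold change of -2.83.

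The difference was present in each pair of libraries that share a replicate number. The knockout held 28.4% of the control value in pair 1, 6.15% in pair 2 and 12.6% in pair 3. Among the 4 libraries with almost no Xist, the knockout mean was 18.5% of the 1 control, control replicate 1, so that no spread among controls is known there. With sex as a covariate the fitted log2 fold change over all libraries was -2.42, and with library totals it was -2.38. The knockout counts are small, and the exact 95% Poisson interval for the lowest of them, 10 counts, ran from 4.80 to 18.4. Such intervals cover counting error only. In bulk RNA, fewer cells of a type and less RNA per cell cannot be told apart.

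**Figure D1:**
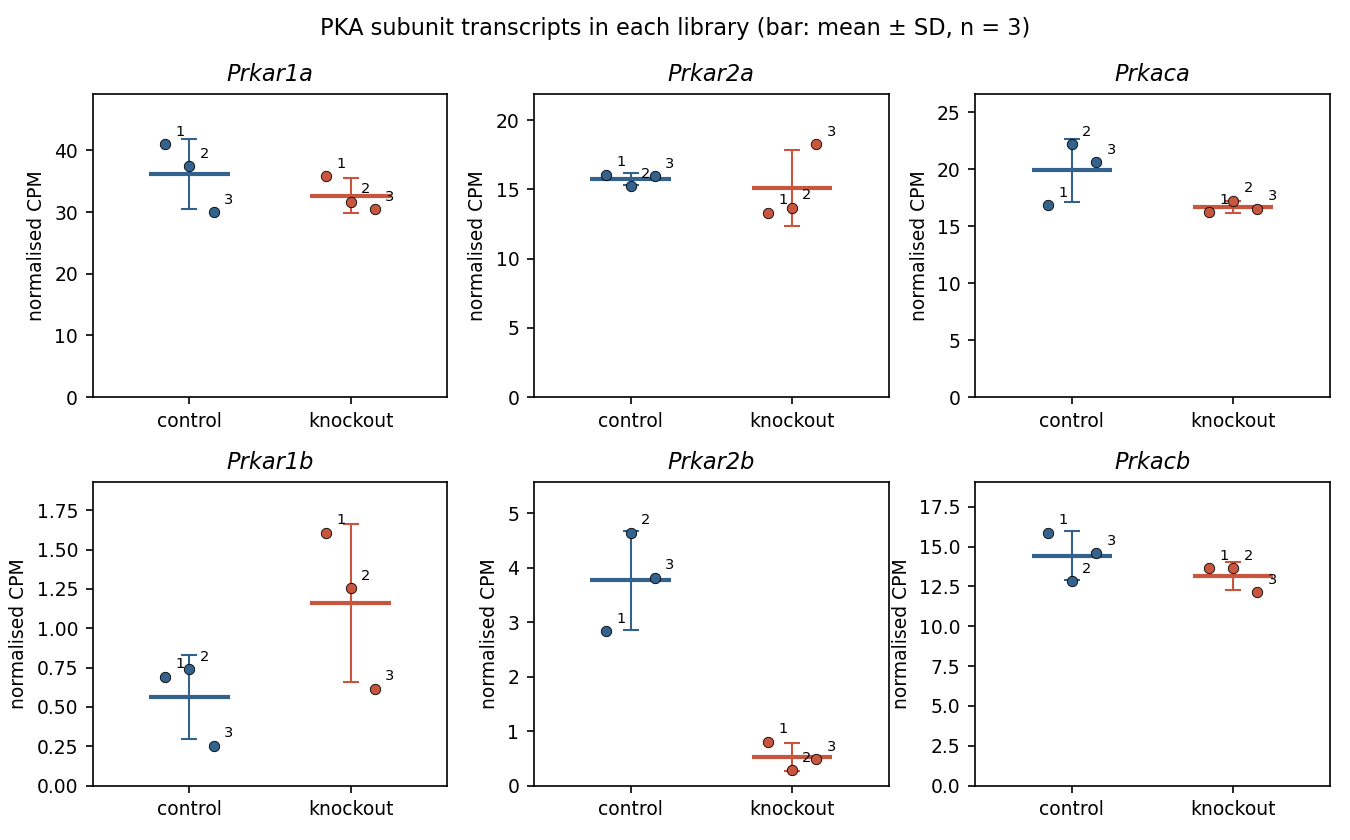
Normalised CPM (y axes, from 0) of the 6 PKA subunit genes in control and knockout libraries, 1 panel per gene; points are libraries numbered by replicate, horizontal bars are means and vertical bars are SD (n = 3). The 2 groups stand apart in the Prkar2b panel, at 2.83 to 4.64 CPM in control and 0.285 to 0.804 CPM in knockout, and overlap in the other 5.

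The genes beside Prkar2b on chromosome 12 had smaller fitted differences, from -0.54 to -0.030 on the log2 scale. The 3 nearest tested protein-coding genes on either side were Hbp1, Cog5 and Dus4l and, on the other, Pik3cg, Ccdc71l and Nampt, by their order in the GRCm38 annotation. None of the 6 was called by edgeR's quasi-likelihood test, DESeq2 or limma-voom. An unadjusted edgeR p under 0.05 was found in 1 of the 6, beside 16.7% of all tested genes. A gene is called here when its p-value, adjusted over all genes tested, lies under 0.05, and 0.945% of the tested genes were called, 0.465% as higher and 0.480% as lower in knockout. Hbp1, which encodes a transcriptional repressor, had a mean of 9.13 ± 2.17 CPM (SD, n = 3) among controls and 8.19 ± 1.39 CPM among knockouts. Cog5, a subunit of a Golgi tethering complex, had 10.0, 8.38 and 11.3 CPM in the controls against 6.25, 7.25 and 8.31 CPM in the knockouts. Its groups stood apart by a narrow margin, with a log2 fold change of -0.45 (SE 0.17, adjusted p = 0.234 in the edgeR test). The log2 fold changes of the other neighbours were -0.49 for Dus4l, -0.54 for Pik3cg, -0.34 for Ccdc71l and -0.030 for Nampt.

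The stretch before the Prkar2b start site is shown because this gene alone among the 6 had groups that did not overlap. It is the RefSeq window of 250 bases upstream of the start in build GRCm38.p6, chr12:32061278-32061527 on the minus strand, with an E-box (CACGTG, the same on both strands) in capitals.
Prkar2b upstream: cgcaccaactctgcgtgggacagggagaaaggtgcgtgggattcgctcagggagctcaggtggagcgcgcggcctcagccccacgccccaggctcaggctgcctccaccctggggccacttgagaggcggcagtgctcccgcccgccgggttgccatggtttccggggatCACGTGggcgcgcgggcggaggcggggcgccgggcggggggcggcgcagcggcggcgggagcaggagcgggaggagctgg
The window is 75.6% G and C, and its E-box begins at position -80 from the start site. An E-box was found in 4 of the 19 RefSeq start windows of the 6 genes and in 6.02% of all 32851 mouse start windows. Several of the 19 belong to the same gene and some overlap. By gene, 4 of the 6 had an E-box in at least 1 window, and no share by gene over all genes was computed. The full cyclic AMP response element TGACGTCA, the binding motif of the PKA target CREB and identical on both strands, was found in 1 of the 19, a Prkar1a window, and in 1.55% of all windows. Such matches describe the letters only, and no binding was measured.

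Among the other regulatory subunits no change was called. Prkar1a, the type I alpha subunit, had 41.0, 37.5 and 30.0 CPM in the controls against 35.8, 31.7 and 30.4 CPM in the knockouts. The groups overlapped, with means of 36.1 ± 5.65 CPM (SD, n = 3) and 32.6 ± 2.83 CPM. The log2 fold change was -0.15 with a 95% interval from -0.50 to 0.20 (adjusted p = 0.700 in the edgeR test). Replicate 1 was the highest library of both groups.

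Prkar2a encodes the type II alpha subunit, the closest relative of Prkar2b. It had 16.1, 15.2 and 16.0 CPM in the controls against 13.3, 13.7 and 18.3 CPM in the knockouts. Knockout replicate 3 lay above all controls and the other two knockouts below all of them. The log2 fold change was -0.062 with a 95% interval from -0.40 to 0.28 (adjusted p = 0.892 in the edgeR test).

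Prkar1b, the type I beta subunit best known from brain, was scarce, with 22, 18 and 7 counts in the controls against 60, 44 and 23 counts in the knockouts. This came to 0.693, 0.739 and 0.254 CPM in the controls against 1.61, 1.26 and 0.617 CPM in the knockouts. The knockout value was above that of the same-numbered control in each of the 3 pairs, at 232%, 170% and 242%, although knockout replicate 3 lay within the control range. The log2 fold change was 1.04 with a 95% interval from -0.21 to 2.29 (adjusted edgeR p of 0.393, or 0.156 with the replicate number as a block), so that a change in either direction lay within the interval. Prkar1b overlaps the unclassified gene model Gm15672, which had at most 5 counts in any library.

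The tested subunits can be set beside the background of the experiment. Of the 5 subunits other than Prkar2b, 0 were called by edgeR's quasi-likelihood test, 0 by DESeq2, 0 by limma-voom and 0 had an unadjusted edgeR p under 0.05, whereas 0.945% of all tested genes were called and 16.7% had such a p. In none of the 5 did the groups stand apart, which 22.9% of all tested genes did. The directions of Prkar1a, Prkar2a, Prkaca and Prkacb depended on scaling: with library totals their log2 fold changes were 0.25, 0.35, 0.17 and 0.26, all below the median of 0.43 that all genes had under that scaling. With the replicate number as a block none of the 5 was called either.

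**Figure D2:**
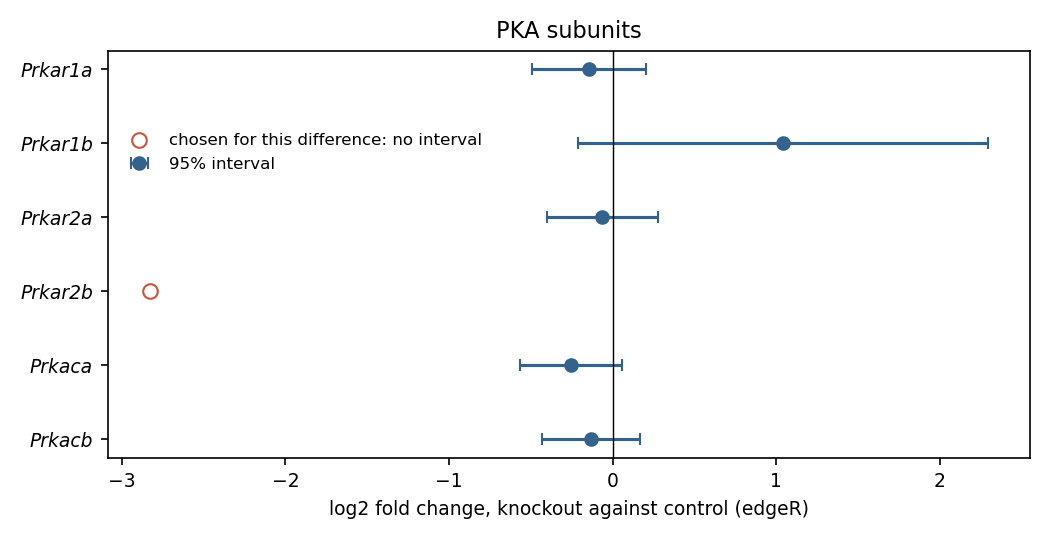
Log2 fold change of each PKA subunit gene in knockout against control, from the edgeR fit (x axis); bars are 95% intervals for the 5 genes that were tested, and the open circle is Prkar2b, shown as a description. The intervals of all 5 tested genes include 0, and that of Prkar1b, from -0.21 to 2.29, is the widest.

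Levels can be compared between subunits only per transcript length, for which CPM was divided by the exonic length of each gene in kilobases. In control the order per length was Prkar1a (8.36 ± 1.31 CPM per kilobase, SD, n = 3), Prkaca (8.01 ± 1.10), Prkar2a (2.47 ± 0.0703), Prkacb (1.64 ± 0.175), Prkar2b (1.03 ± 0.248) and Prkar1b (0.148 ± 0.0702). Per exonic length the libraries of Prkar1a and Prkaca overlapped in control, and no other neighbours in that order did. Which neighbours overlap depends on the length used and differs per coding length. In knockout Prkar2b moved to last place, at 0.144 ± 0.0717 CPM per kilobase, where its libraries overlapped those of Prkar1b at 0.305 ± 0.132.

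Prkar2b was a minor part of the regulatory transcripts even in control. It made up 5.99%, 10.1% and 9.91% of the 4 regulatory genes' summed level per length in the controls against 2.00%, 0.791% and 1.30% in the knockouts. These shares do not depend on how libraries are scaled, but they do depend on the length used. Per coding length they averaged 6.33% in control and 0.974% in knockout. Within the type II pair the share of Prkar2b per exonic length averaged 29.2% ± 5.59 (SD, n = 3) in control and 5.82% ± 3.25 in knockout. Per coding length it averaged 18.7% in control and 3.33% in knockout. Nearly all type II transcript left in the knockouts was thus Prkar2a. Type II as a whole made up 29.4% ± 4.12 of regulatory transcript per exonic length in control and 24.3% ± 4.48 in knockout, with overlapping groups. Per coding length it made up 33.6% and 30.4%, again with overlap. Prkar1b contributed 1.195% ± 0.492 in control and 2.92% ± 1.18 in knockout, which did not overlap per exonic length and did per coding length.

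The 3 other regulatory subunits did not add up to more transcript in knockout under TMM scaling. Their summed level was 12.2, 11.3 and 9.50 CPM per kilobase in the controls against 10.8, 9.80 and 10.1 CPM per kilobase in the knockouts. The knockout mean was 93.1% of the control mean with TMM factors and 122.9% with library totals, and the groups overlapped under both. With Prkar2b included, the sum averaged 12.01 ± 1.29 (SD, n = 3) in control and 10.4 ± 0.591 in knockout. That knockout mean was 86.3% of the control mean with TMM factors and 114% with library totals, with overlapping groups under both.

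The difference in Prkar2b was 0.887 CPM per kilobase, which equals 10.6% of the control level of Prkar1a and 35.9% of that of Prkar2a. An equal gain corresponds to a log2 rise of 0.15 in Prkar1a, 0.44 in Prkar2a or 2.81 in Prkar1b, and to 0.26 in Prkar2a when counted per coding length. Because Prkar2b was chosen for this difference, these values describe its size and are no bar for a test. A log2 rise of 0.15 lies within the 95% interval of Prkar1a given above. With library totals the fitted log2 fold changes of Prkar2a and Prkar1b were 0.35 and 1.43.

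**Figure D3:**
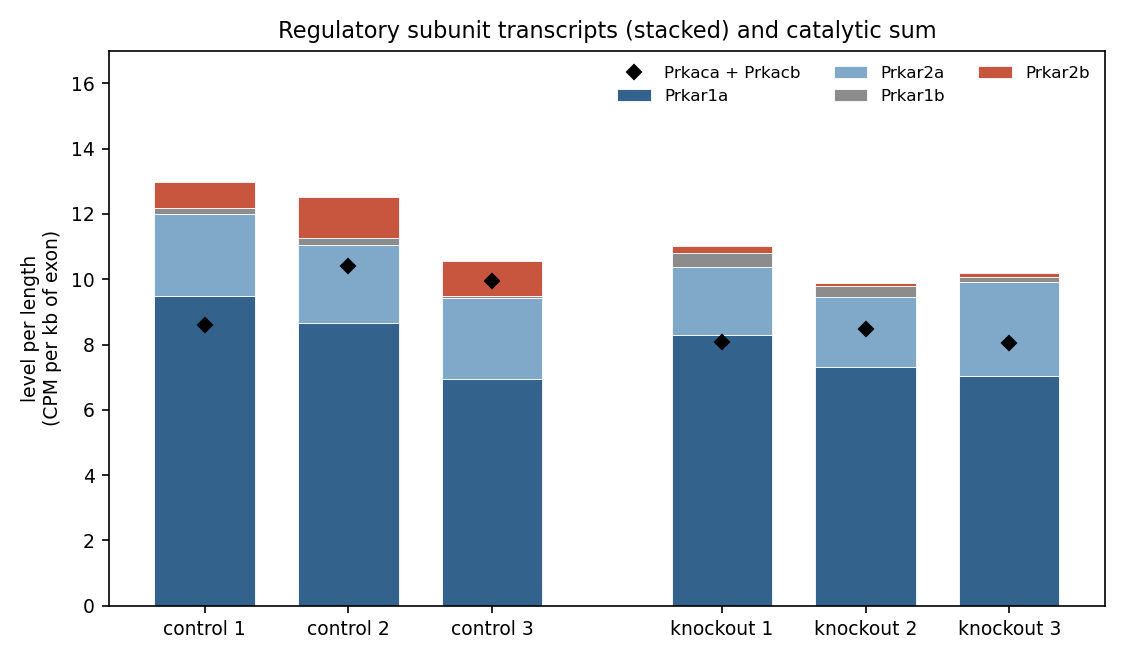
Level per length (y axis, CPM per kilobase of exon) of the 4 regulatory subunit transcripts, stacked, in each control and knockout library; black diamonds give the sum of Prkaca and Prkacb. The Prkar2b segment shrinks from 5.99 to 10.1% of the stack in control to 0.791 to 2.00% in knockout, and the rest of the stack spans 9.50 to 12.2 in control and 9.80 to 10.8 in knockout.

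The catalytic subunits did not pass the test either. Prkaca, the catalytic alpha subunit, had 16.9, 22.2 and 20.6 CPM in the controls against 16.2, 17.2 and 16.5 CPM in the knockouts. Control replicate 1 lay among the knockouts, and the knockout mean was 98.8% of that library's value and 83.7% of the mean of all controls. Within pairs the knockout value was lower in 3 of 3, at 96.2%, 77.6% and 80.1% of the same-numbered control. The log2 fold change of Prkaca was -0.26 with a 95% interval from -0.57 to 0.056 (adjusted edgeR p of 0.402, or 0.303 with the block). The processed pseudogene Prkaca-ps1 had no counts in any library.

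Prkacb, the catalytic beta subunit, had 15.9, 12.8 and 14.6 CPM in the controls against 13.6, 13.6 and 12.2 CPM in the knockouts. Its groups overlapped, and the log2 fold change was -0.13 with a 95% interval from -0.43 to 0.17 (adjusted p = 0.678 in the edgeR test). Prkaca made up 82.7% ± 3.53 (SD, n = 3) of catalytic transcript per exonic length in control and 81.7% ± 1.00 in knockout. Per coding length that share was 60.9% ± 5.85 in control and 59.0% ± 1.63 in knockout. Per exonic length the 2 genes together gave 9.65 ± 0.938 CPM per kilobase in control and 8.20 ± 0.247 in knockout. Each knockout sum lay below all control sums, whereas with library totals the knockout mean was 114% of the control mean and each knockout sum lay above.

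The proportion of regulatory to catalytic transcript overlapped between the groups. The ratio of summed regulatory to summed catalytic level per length was 1.51, 1.21 and 1.06 in the controls against 1.36, 1.16 and 1.27 in the knockouts. The means were 1.26 ± 0.229 (SD, n = 3) and 1.27 ± 0.0999, and the spread among controls was wider than the difference between the groups. Without Prkar2b the ratio was 1.15 ± 0.240 in control and 1.25 ± 0.0909 in knockout, again with overlap. These values are per exonic length. Per coding length the ratio averaged 1.56 in control and 1.59 in knockout, and without Prkar2b 1.46 and 1.57, with overlap in both cases. These are ratios of transcripts, and protein amounts were not measured.

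Upstream and downstream of PKA, 98 other gene symbols of the cyclic AMP pathway were listed. They matched 97 genes of the count tables, of which 70 passed the count filter. edgeR's quasi-likelihood test called 1 of the 70, higher in knockout, against 0.945% of all tested genes. With the replicate number as a block it called 5 of the 70, 3 higher and 2 lower, against 5.99% of all tested genes (3.40% higher and 2.58% lower). Both shares were near the background. An unadjusted edgeR p under 0.05 was found in 12 of the 70, beside 16.7% of all tested genes. The counts given list by list below are to be read beside these shares of all tested genes. The 70 had a median log2 fold change of 0.083, beside 0.022 over all tested genes, and the groups stood apart in 7 toward higher and 8 toward lower values, beside 12.0% and 10.9% of all tested genes.

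The called gene was Vipr2 (ENSMUSG00000011171), a receptor for vasoactive intestinal peptide that couples to cyclic AMP production. It had 10.0, 7.15 and 7.71 CPM in the controls against 15.8, 17.7 and 24.1 CPM in the knockouts. Every knockout lay above every control. Vipr2 rose, from a mean of 8.30 ± 1.54 CPM (SD, n = 3) among controls to 19.2 ± 4.32 CPM among knockouts, by 1.21 on the log2 scale (SE 0.20), and the adjusted p was 0.0306 in edgeR without the block and 0.00474 with it. It kept this direction in all 16 alternative fits but stayed under the threshold in 9 of them. The call was lost with limma-voom, with sex as a covariate (log2 fold change 0.93, adjusted p = 0.285 in the edgeR fit) and in each fit that left out control replicate 2, control replicate 3 or 1 of the knockout libraries, where the log2 fold changes ran from 1.01 to 1.33. Vipr2 overlaps the antisense gene Gm20658, and these counts do not separate strands. The same holds for Adcy6, Pde8b, Akap7, Akap1, Rapgef3, Rapgef4 and Glp1r below, which overlap antisense gene models too.

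Other receptors and G proteins were not called. Vipr1, another receptor for vasoactive intestinal peptide, went the other way from Vipr2. It had 5.61, 5.79 and 11.5 CPM in the controls against 5.41, 4.71 and 5.23 CPM in the knockouts. Its groups stood apart by a narrow margin, with a log2 fold change of -0.58 (adjusted p = 0.352 in the edgeR test). In that list 1 of 13 tested genes was called and 3 had an unadjusted edgeR p under 0.05. Glp1r, the receptor of glucagon-like peptide 1, averaged 27.9 CPM in control and 17.3 CPM in knockout (log2 fold change -0.69, adjusted p = 0.181 in the edgeR test), and with sex as a covariate its log2 fold change was -0.16. The inhibitory G protein subunits Gnai1, Gnai3 and Gnai2 had log2 fold changes of -0.40, -0.24 and 0.13. Gnai1 (adjusted edgeR p of 0.246) and Gnai3 were lower in every knockout than in every control, and the groups of Gnai2 overlapped. Of all tested genes, 10.9% stood apart toward lower values.

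The enzymes that make and degrade cyclic AMP were not called without the block. Of 6 tested adenylyl cyclases, which make it, 0 were called by edgeR and 1 had an unadjusted p under 0.05. Adcy6, the cyclase with the highest level per length, averaged 31.5 CPM in control and 39.4 CPM in knockout, with no overlap and a log2 fold change of 0.32 (adjusted p = 0.263). Adcy9 had a log2 fold change of 0.34 with overlapping groups. Of 11 tested phosphodiesterases, which degrade cyclic AMP, 0 were called by edgeR and 2 had an unadjusted p under 0.05, while the block called 1 lower.

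The called phosphodiesterase was Pde8b, a high-affinity cyclic AMP enzyme. It had 6.87, 7.39 and 9.63 CPM in the controls against 4.53, 5.71 and 3.996 CPM in the knockouts. The log2 fold change was -0.75 (SE 0.20), with an adjusted edgeR p of 0.120 without the block and 0.0461 with it. Pde3b, an insulin-regulated phosphodiesterase, averaged 16.0 CPM in control and 11.8 CPM in knockout with no overlap (log2 fold change -0.44, adjusted p = 0.128 in the edgeR test), and Pde4a had a log2 fold change of 0.18.

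A-kinase anchoring proteins hold type II PKA in place. Of 12 tested, 0 were called by edgeR and 3 had an unadjusted p under 0.05, and the block called 1 lower. Akap7, whose products tether PKA at membranes, had 5.48, 7.48 and 10.1 CPM in the controls against 2.79, 4.71 and 3.75 CPM in the knockouts. Every knockout lay below every control, with a log2 fold change of -1.03 (SE 0.27) and an adjusted edgeR p of 0.119 without the block and 0.0109 with it. It also passed the threshold in DESeq2 (adjusted p = 0.0250), without a filter and without control replicate 1 (log2 fold change -1.25, adjusted edgeR p of 0.0345), whereas a fit with sex as a covariate gave -0.55 (adjusted edgeR p of 0.580). The mitochondrial anchor Akap1 had a log2 fold change of 0.37, the nuclear protein Akap8l of 0.54 and ezrin (Ezr) of 0.19.

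PKA inhibitors and regulators of subunit stability gave no call, with 0 of 6 tested genes called by edgeR and 0 at an unadjusted p under 0.05. The ubiquitin ligase Pja2, which is known to act on regulatory subunits, had a log2 fold change of -0.19, its relative Pja1 of -0.0021 and the PKA-like kinase Prkx of -0.34. Of the effectors other than PKA, 0 of 2 tested were called and 1 had an unadjusted p under 0.05. Rapgef3, the cyclic AMP-activated exchange factor Epac1, averaged 2.34 CPM in control and 4.29 CPM in knockout (log2 fold change 0.87, adjusted p = 0.168 in the edgeR test), and Rapgef4 had a log2 fold change of 0.14.

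CREB and its coactivators carry the PKA signal to genes. Of 11 tested, 0 were called by edgeR and 1 had an unadjusted p under 0.05, and the block called 1 higher. Crtc1, a CREB coactivator, had 6.90, 6.45 and 6.76 CPM in the controls against 10.7, 10.3 and 9.79 CPM in the knockouts. The libraries of each group lay close together and the groups stood apart, with a log2 fold change of 0.62 (SE 0.13) and an adjusted edgeR p of 0.0614 without the block and 0.0296 with it. Atf1 and Sik1 had log2 fold changes of -0.35 and -0.022.

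CREB target genes are read as a sign of cyclic AMP signalling. Of 14 tested, 0 were called by edgeR and 1 had an unadjusted p under 0.05, and the block called 1 higher. That gene was Rgs2, a regulator of G protein signalling, with 5.64, 2.14 and 4.76 CPM in the controls against 9.46, 3.37 and 19.7 CPM in the knockouts. Its groups overlapped, and the adjusted p from edgeR was 0.436 without the block and 0.0430 with it. Ppargc1a averaged 2.74 CPM in control and 4.29 CPM in knockout, with no overlap and a log2 fold change of 0.65 (adjusted p = 0.156 in the edgeR test). The immediate-early genes Fos and Junb, which also respond to handling of tissue, had log2 fold changes of 0.079 and 0.51 with standard errors of 1.31 and 1.22. Fos had 98.1, 3.86 and 70.0 CPM in the controls against 66.0, 13.0 and 103 CPM in the knockouts, so that replicate 2 was the lowest of both groups.

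**Figure D4:**
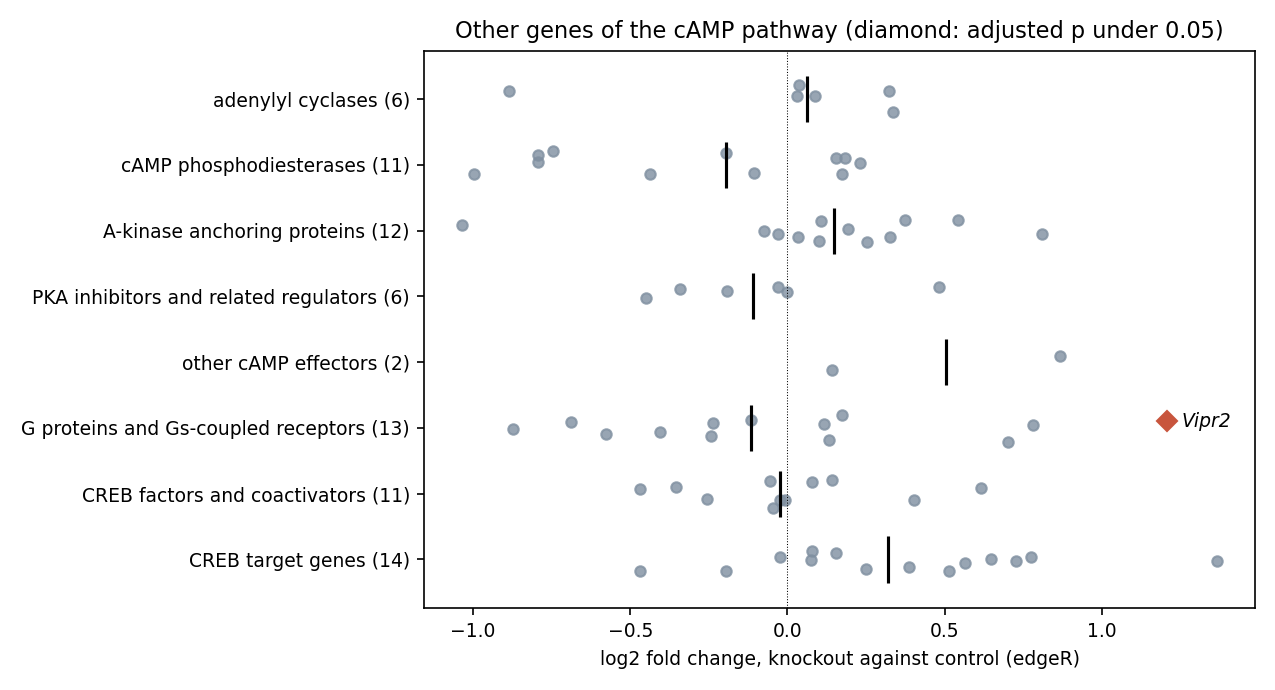
Log2 fold change in knockout against control from the edgeR fit (x axis) of each tested gene in the 8 cyclic AMP pathway lists (rows, with the number tested); circles are genes that were not called, the diamond is the called gene and vertical bars are list medians. The points scatter on both sides of 0, list medians run from -0.20 to 0.50, and Vipr2 at 1.21 is the called gene.

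The protein-coding genes whose log2 CPM followed Prkar2b most closely over the 6 libraries were Atp9a, Cdc42, Ephb3, Nmd3 and Emd, with Pearson r from 0.989 to 0.992. Their differences were all smaller than that of Prkar2b, the largest being the log2 fold change of -2.09 in Ephb3. The receptor tyrosine kinase Ephb3 had 1.197, 2.05 and 1.78 CPM in the controls against 0.482, 0.314 and 0.375 CPM in the knockouts. The log2 fold changes of the other 4 lay between -0.60 and -0.35. Of 10657 genes compared, 222 had an r over 0.9, and all share the same libraries and the same genotype difference. Among PKA subunits the r with Prkar2b was 0.74 for Prkaca, 0.43 for Prkar1a, 0.40 for Prkacb, 0.20 for Prkar2a and -0.59 for Prkar1b.

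Markers of cell types that could carry Prkar2b were read in the same libraries. Of 8 adipocyte markers, 3 passed the filter and 0 were called by edgeR, and the defining Adipoq and Lep had no counts in any library while Plin1 had at most 1. Their summed level, led by Fabp4, was 6.65 to 11.7 CPM in control and 6.79 to 19.9 CPM in knockout. The 10 islet markers summed to 353 to 460 CPM in control and 243 to 910 CPM in knockout, and 0 were called. The 8 nerve and Schwann cell markers summed to 3.25 to 4.83 CPM in control and 4.83 to 6.22 CPM in knockout. The sums hide members that differ: the adipocyte marker Pparg, which other cells also express, had 0.976, 1.36 and 1.42 CPM in the controls against 0.536, 0.742 and 0.375 CPM in the knockouts (log2 fold change -1.18, adjusted edgeR p of 0.228).

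Blood vessel and immune markers were highest in replicate 1 of both groups. The 6 endothelial markers summed to 69.7, 14.7 and 22.1 CPM in the controls against 75.7, 21.9 and 27.4 CPM in the knockouts. The 9 leukocyte markers ranged from 7.60 to 55.9 CPM in control and from 6.62 to 33.8 CPM in knockout, and the 8 stromal markers from 24.9 to 97.7 and from 28.1 to 110.9. The 7 duct markers ranged from 185 to 228 in control and from 171 to 261 in knockout. Within the duct list Muc1, Krt19 and Cftr were lower in every knockout than in every control (log2 fold changes -0.75, -0.81 and -1.33) and Spp1 was higher (1.07), and 0 of the 7 were called by edgeR. Of all tested genes, 10.9% stood apart in this way toward lower values and 12.0% toward higher values. The part of all these markers in the subunit values was not tested.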

How the data were processed

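Gene expression was measured by poly-A RNA sequencing of 6 acinar cell preparations. The authors deposited raw counts per gene in unstranded and stranded form, of which the unstranded ones were used (forward strand 50.1% to 50.3%). STAR 2.7.10a and the build GRCm39 are named, per the submitters' processing notes; the annotation is not given in the sources used here. The layout is that of STAR gene counts, in which reads mapped to several places count to no gene. The rows for reads counted to no gene held 36.9% to 45.7% of reads, with a lower share in every knockout than in any control, and stayed out. Names and lengths came from GENCODE M21 (GRCm38), which matched 52133 of 55414 identifiers (94.1%); because the builds differ, the coordinates of its gene models are not printed, and the only position given is that of the RefSeq sequence window, in GRCm38.p6.

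Tests used edgeR 4.0.16 in R 4.3.3 with filterByExpr, TMM factors and a robust quasi-likelihood fit, adjusted by Benjamini-Hochberg over 13115 genes; a standard error is the log2 fold change over the square root of F. The script was tested on simulated data. Log2 CPM used a prior count of 2. Alternatives are given in the closing section, with DESeq2 1.42.0 and limma 3.58.1. Named genes were the 6 subunits and, per pathway list, called genes, the 2 with the highest level and the 2 with the smallest p, with 3 neighbours a side and the 5 genes most like Prkar2b. Gnai1 was added beside Gnai2 and Gnai3, and Vipr1 beside Vipr2. Neither Gnai1 nor Vipr1 was followed among the directions that turned. Members and lists were chosen with earlier results of these data known. Deviations from group means correlated at 0.63, 0.455 and 0.285 in same-numbered pairs and at -0.50 to 0.21 between differently numbered libraries. The labels do not say what the numbers stand for. Taking them to pair the libraries is thus an assumption drawn from these same data. P-values measure the spread between these preparations. No 2 libraries agreed within sampling noise.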

Additional observations from a re-analysis of the deposited data

How the results depend on the processing

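None of the 5 tested subunits was called in any of the 16 alternative fits (Prkar1b was absent from the fit with a floor of 10 counts per library), nor was any neighbour of Prkar2b (Pik3cg was absent from that fit as well). The replicate block changed no other call than those given with the results. The number of genes called, 124 (61 higher, 63 lower), was 785 with the replicate block (446 and 339), 1519 with library totals (1442 and 77), 594 with DESeq2 (259 and 335), 850 without a filter (477 and 373), 210 with a floor of 10 counts per library and 21 with sex as a covariate, and 22 (without control replicate 2) to 437 (without control replicate 1) when 1 library was left out. The number of cyclic AMP pathway genes called, 1, was 5 with the replicate block, 8 with library totals, 4 with DESeq2, 0 with limma-voom, 7 without a filter, 2 with a floor of 10 counts per library, 0 with the sex covariate and 0 to 3 when 1 library was left out. The Prkar2b log2 fold change of -2.83 ran from -3.27 to -2.54 when 1 library was left out and was -2.38 with library totals, -2.42 with the sex covariate and -3.47 with replicates 2 and 3 alone, an alternative chosen after seeing the data. The knockout to control ratio of the other regulatory subunits, 0.931, was 1.23 with library totals and 0.872 to 0.985 when 1 library was left out.

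Directions that turned were of genes not called. With library totals the log2 fold changes became 0.25 for Prkar1a, 0.35 for Prkar2a, 0.17 for Prkaca, 0.26 for Prkacb, 0.079 for Atf1, 0.072 for Ccdc71l, 0.18 for Gnai3, 0.27 for Hbp1, 0.37 for Nampt, 0.42 for Pja1, 0.21 for Pja2, 0.059 for Prkx and 0.41 for Sik1, which goes with the shift of 0.41 in all genes. With the sex covariate they became -0.22 for Ezr, -0.69 for Fos, -0.26 for Gnai2, 0.13 for Hbp1, -0.51 for Junb, 0.19 for Pja1, -0.27 for Rapgef4 and 0.44 for Sik1. With replicates 2 and 3 alone they became 0.010 for Prkar2a, 0.14 for Nampt and 0.96 for Pik3cg. Pja1 became 0.0018 and Sik1 0.036 with the replicate block, Pja1 0.0038 and Sik1 0.044 with limma-voom, and Pja1 0.016 with a floor of 10 counts per library. When 1 library was left out the ranges were -0.22 to 0.020 for Prkar2a, -0.54 to 0.71 for Fos, -0.025 to 0.36 for Gnai2, -0.30 to 0.052 for Hbp1, -0.025 to 1.56 for Junb, -0.25 to 0.088 for Nampt, -0.97 to 1.15 for Pik3cg, -0.11 to 0.077 for Pja1, -0.18 to 0.38 for Rapgef4 and -0.39 to 0.54 for Sik1. For the turns other than those with library totals the cause was not tested. Counts were low for Prkar1b, at 7 to 60, and for Prkar2b in knockout, at 10 to 30.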
